A study of Drosophila melanogaster with 16 samples.

Results

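The genes described here encode subunits of the mitochondrial respiratory chain and of ATP synthase. They were chosen by name: every gene on the array whose current symbol starts with ND-, Sdh, UQCR, COX, Cyt-c or ATPsyn, which gave 42 genes of the 6793 named genes. Of these, 18 belonged to complex I (ND-), 6 to complex II (Sdh), 3 to complex III (UQCR-6.4, Cyt-c1 and Cyt-c1L), 5 to complex IV (COX) and 10 to complex V, the ATP synthase (ATPsyn). No gene for cytochrome c itself was among the named spots. The gene table used for the symbols lists 95 genes with these prefixes, so less of the respiratory chain was seen than not.

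The respiratory chain sits in the inner mitochondrial membrane. Complex I (NADH dehydrogenase) and complex II (succinate dehydrogenase, which is also an enzyme of the TCA cycle) pass electrons to ubiquinone, complex III (cytochrome bc1) passes them on to cytochrome c, and complex IV (cytochrome c oxidase) hands them to oxygen. Complexes I, III and IV pump protons, and ATP synthase lets the protons return through a rotating ring and makes ATP. Neurons and photoreceptors of the fly head draw heavily on this supply, and the subunits studied here are all made from nuclear genes.

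The animals were virgin Oregon-R (wild type) females of Drosophila melanogaster, 3 to 4 days old at the start, kept with 30 flies in a vial. The titles and treatment text give females, while the growth text speaks of males. PTZ flies ate normal food (NF) with 8 mg/ml of pentylenetetrazol, a convulsant drug known to block GABA-A receptors, for 12 hrs, 2 days or 7 days, and a further set was returned to NF for 7 days after 7 days of PTZ and collected on the 14th day (withdrawal). Control flies stayed on NF throughout, and each time point had its own. Whole heads were used, so a ratio mixes brain, eye, muscle, fat body and cuticle, and fewer cells of a type cannot be told apart from less RNA in each cell. Head RNA of PTZ and NF flies from pooled vials was hybridised together on 2-colour cDNA arrays, with 4 arrays at each of the 4 time points. Replicates 1 and 2 carried PTZ in the red dye (Cy5), and replicates 3 and 4, the dye swaps, carried PTZ in the green dye (Cy3). Every value below is a log2 ratio of PTZ over NF, set so that the median spot of each array is 0. A value above 0 therefore means more RNA in PTZ heads than in NF heads relative to the median spot of that array.

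The arrays gave values for 8705 to 21961 spots each of 27648. The titles place 4 arrays at the 7th day, but the treatment text of replicate 4 there describes withdrawal, so the main counts of that day are also given without it. At 12 hrs, arrays of opposite dye orientation correlated below 0 after turning (Spearman's rho across features, -0.45 to -0.33), and over the later time points rho lay between -0.39 (2nd day) and 0.35 (14th day). The direction of every ratio is that of the dyes named in the labels. Beside the median spot as 0, the deposited values would put the median of all features at 0.25 on the 14th day. The pools are called biological replicates, but p-values measure the spread between arrays that also differ in dye.

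The subunit genes were measured better than most. The median subunit gene had a value on 12 of 16 arrays, against 8 for the median named gene, and 8 of 42 (19.05%) had a value on all 16 arrays, against 6.374% of named genes. These 8 were ATPsynB, ATPsynG, ATPsynbeta, COX7A, ND-15, ND-51, ND-ASHI and ND-B17.2. The 11 genes whose symbol ends in L, which are duplicate ("like") copies of subunit genes, had a median of only 6 arrays, and the 31 others a median of 14. Cyt-c1L had no value on any array. Genes were tested at a time point where at least 3 of its 4 arrays gave a value, which left 32 subunit genes at 12 hrs, 26 on the 2nd day, 27 after 7 days and 28 after withdrawal. Errors given with ± are the SD over the arrays that gave a value, 4 unless fewer values are listed or another n is given. In all, 15 genes were tested at every time point, and 3 (ND-24L, ND-51L2 and Cyt-c1L) at none.

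**Figure D1:**
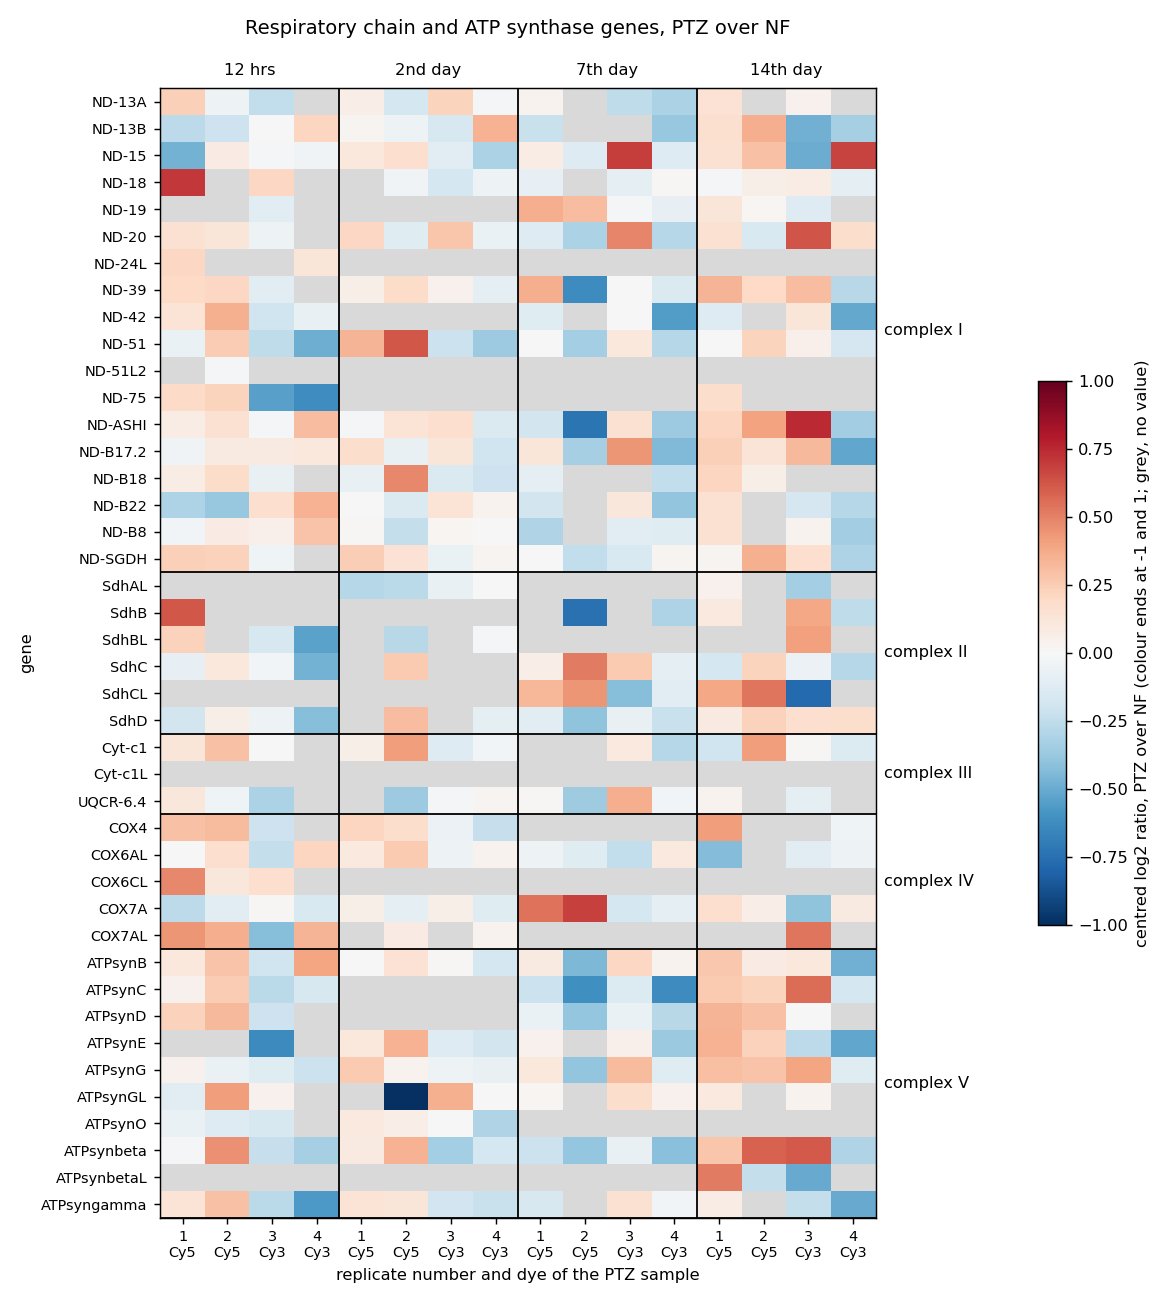
Centred log2 ratio of PTZ over NF for the 42 subunit genes (rows, grouped by complex) on the 16 arrays (columns, by time point, replicate number and dye of the PTZ sample). Grey marks no value, and the colour scale ends at -1 and 1, a limit that only ATPsynGL on the 2nd day (-1.49) passed. Red cells are frequent on replicates 1 and 2 of the 14th day, and blue cells on replicates 2 and 4 of the 7th day.

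No subunit gene differed between PTZ and NF heads at any time point by limma (adjusted p under 0.19, Benjamini-Hochberg over all features tested). The count was 0 of 32 genes at 12 hrs, where 0% of 5760 features were called, 0 of 26 on the 2nd day (0.222% of 5415 features), 0 of 27 on the 7th day (0% of 7289) and 0 of 28 on the 14th day (0% of 6464). Without adjustment, p was under 0.05 for 1 subunit gene, ATPsynC on the 7th day, while 2.34%, 4.82%, 8.4% and 2.18% of features passed that mark at the 4 time points in order of time. The genes' means were small. The lowest was -0.40 (ATPsynC, 7th day) and the highest 0.30 (ATPsynbeta, 14th day), both of them subunits of ATP synthase. The study's own supplementary table of up- and down-regulated genes, drawn up with another method (SAM), lists ATPsynbeta, ATPsynD and ND-42.

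The intervals show how closely each mean was measured and are not adjusted for the number of features. The adjusted test could miss differences larger than their half-widths. For ATPsynC on the 7th day the interval was -0.72 to -0.08, while its adjusted p was 0.589 by limma. The 95% interval of a subunit gene's mean reached a median of 0.31, 0.22, 0.34 and 0.42 to either side, with the time points in order of time. The interval lay within 1 of 0, which is a 2-fold difference, for every gene tested at every time point except ATPsynGL on the 2nd day.

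As a group, the genes had medians near 0 at each time point other than the 7th day, when the median was below 0. At 12 hrs, 16 of 32 lay above 0, with a median of 0.0065, against a median of 0.0022 over all features. On the 2nd day, 15 of 26 lay above 0, with a median of 0.011, against 0.0039 over all features. On the 7th day, 21 of 27 lay below 0, with a median of -0.082, against 0.004 over all features, of which 49.3% lay below 0. On the 14th day, 17 of 28 lay above 0, with a median of 0.024, against -0.0064 over all features, and without replicate 2 the count was 12 of 28 (median -0.024). The genes share arrays, so these counts are a description and not a test.

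The medians differed between the arrays of a time point. At 12 hrs the median subunit gene stood at 0.074, 0.17, -0.11 and -0.11 on replicates 1 to 4, and on the 2nd day at 0.093, 0.097, -0.052 and -0.088, so that at both of these times the arrays with PTZ in Cy5 were above 0 and those with PTZ in Cy3 below. On the 7th day it stood at 0.0072, -0.34, 0.0035 and -0.13, so that 2 arrays were near 0 and 2 below it, 1 of each dye orientation. Without replicate 2, 16 of 27 genes lay below 0 on the 7th day (median -0.056), and without replicate 4, whose labels disagree, 16 of 27 as well (median -0.050). On the 14th day the median stood at 0.15, 0.23, 0.044 and -0.28, with replicate 4 alone below 0. The spread of the array medians (SD 0.14, 0.096, 0.16 and 0.22 over the 4 time points in order, n = 4 each) exceeded the group's median each time. Centring mattered on the 7th day: with the values as deposited 14 of 27 genes lay below 0, while the median of all features was then 0.095 and the subunit genes' median less that of all features was -0.099. After withdrawal the deposited values put 23 of 28 subunit genes above 0, and 82.94% of features.

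**Figure D2:**
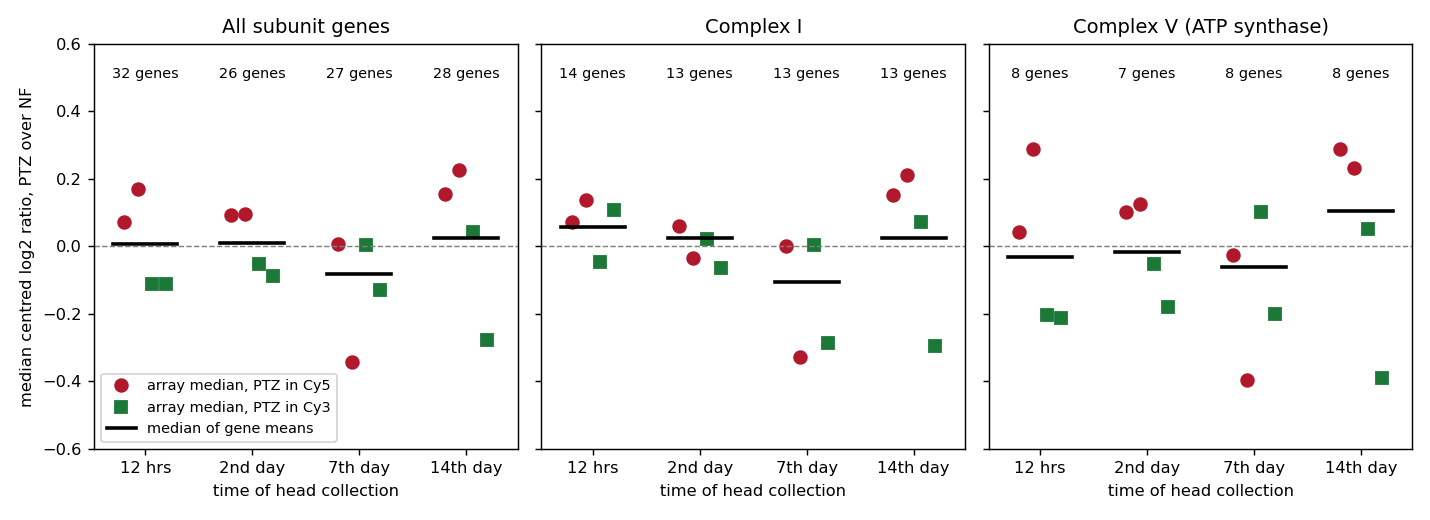
Median centred log2 ratio of PTZ over NF on each array for all subunit genes tested, for complex I and for complex V, by time of head collection. Circles are arrays with PTZ in Cy5, squares arrays with PTZ in Cy3, and the bar is the median of the gene means, which is -0.082 for all genes on the 7th day. In the panel of all genes both circles lie above both squares at every time point but the 7th day.

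Complex I supplied the most genes. The core subunits among its named genes were ND-75, ND-51 and ND-20, the fly counterparts of human NDUFS1, NDUFV1 and NDUFS7, which are only part of the core. Between them they carry the flavin and some of the iron-sulphur clusters that lead electrons to ubiquinone. Another 13 genes encode accessory subunits, which surround the core, and 2 were like genes. The complex I median was 0.058 at 12 hrs (8 of 14 above 0), 0.024 on the 2nd day (10 of 13 above 0), -0.10 on the 7th day (11 of 13 below 0) and 0.026 after withdrawal (9 of 13 above 0). Single arrays moved these counts: without replicate 3 of the 2nd day 6 of 13 lay above 0 (median -0.0068), without replicate 2 of the 14th day 5 of 13 (median -0.013), and on the 7th day 8 of 13 lay below 0 without replicate 2 (median -0.056) and 9 of 13 without replicate 4 (median -0.078). Its array medians on the 7th day were 0.0025, -0.33, 0.0035 and -0.29, the same 2 arrays standing low.

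ND-51 binds the flavin that takes electrons from NADH. At 12 hrs it measured -0.067, 0.25, -0.25 and -0.49 (mean -0.14 ± 0.31). On the 2nd day it measured 0.34 and 0.62 with PTZ in Cy5, and -0.22 and -0.37 with PTZ in Cy3, for a mean of 0.094 ± 0.46, and the sign followed the dye on every array. It measured 0.0025, -0.34, 0.11 and -0.29 on the 7th day (mean -0.13 ± 0.22), and after withdrawal 0.0020, 0.22, 0.052 and -0.17 (mean 0.026 ± 0.16). The ratios of the 4 times overlap throughout.

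ND-20 carries the last iron-sulphur cluster before ubiquinone. Its 14th day values were 0.15, -0.15, 0.63 and 0.17, a mean of 0.20 ± 0.32 (adjusted p = 1.00 by limma), with 3 of 4 arrays above 0. Its 7th day values were -0.13, -0.32, 0.49 and -0.29, with replicate 3 alone above 0 (mean -0.062 ± 0.37). ND-75, the largest subunit of the core, was tested at 12 hrs only, where it measured 0.19, 0.23, -0.54 and -0.62. Its mean there, -0.19 ± 0.46, was the lowest of any subunit gene at 12 hrs, and its sign again followed the dye.

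Among the accessory subunits, ND-ASHI (the counterpart of NDUFB8, in the membrane arm) had the lowest mean on the 7th day. It stood at 0.13 ± 0.14 at 12 hrs and 0.037 ± 0.14 on the 2nd day. Its 7th day values were -0.18, -0.73, 0.15 and -0.36, a mean of -0.28 ± 0.37 (adjusted p = 0.626 by limma). Replicate 3 lay above 0 and the others below. After withdrawal it measured 0.22, 0.40, 0.75 and -0.34, a mean of 0.26 ± 0.46, with replicate 4 alone below 0. ND-42, the counterpart of NDUFA10, measured -0.13, 0.12 and -0.51 on the 14th day, where replicate 2 gave no value, and -0.12, 0.0035 and -0.56 on the 7th day, also without replicate 2. Its means, -0.17 ± 0.32 on the 14th day and -0.23 ± 0.29 on the 7th day (n = 3 each), differed by less than their SD. ND-B8, the counterpart of NDUFA2, was below 0 on all 3 of its 7th day arrays (-0.30, -0.11 and -0.12) and lay on 12 hrs arrays at -0.025, 0.080, 0.052 and 0.29, so the 7th day values were all below those at 12 hrs. Of 4460 features, 4.15% had 7th day values entirely below those at 12 hrs, and ND-B8 was 1 of 23 subunit genes.

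The other complex I genes tested on the 7th day had means from -0.18 (ND-13A, the counterpart of NDUFS6) to 0.14 (ND-19, the counterpart of NDUFA8), and only ND-19 and ND-15 (NDUFS5) lay above 0. After withdrawal the others ran from -0.10 (ND-B22, NDUFB9) to 0.15 (ND-15). ND-15 spread the most there, at 0.15, 0.29, -0.50 and 0.67. ND-18 (NDUFS4), ND-B17.2 (NDUFA12), ND-39 (NDUFA9), ND-SGDH (NDUFB5), ND-13B (NDUFA5) and ND-B18 (NDUFB7) had means between -0.10 and 0.14 at every time point tested. At the 2 earlier time points no complex I mean lay beyond 0.19 on either side.

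Complex II is built of a flavoprotein (SdhA), an iron-sulphur protein (SdhB) and a pair of membrane anchors (SdhC and SdhD). SdhA was not among the named genes, and the array held SdhB, SdhC, SdhD and the like genes SdhAL, SdhBL and SdhCL. SdhD, a membrane anchor, lay on one side of 0 at each of the late time points. At 12 hrs it measured -0.19, 0.062, -0.053 and -0.43 (mean -0.15 ± 0.21). Its 7th day values were -0.10, -0.40, -0.074 and -0.22, all below 0 (mean -0.20 ± 0.15, adjusted p = 0.643 by limma). Its 14th day values were 0.089, 0.23, 0.17 and 0.18, all above 0 (mean 0.17 ± 0.058, adjusted p = 1.00). SdhC, the other anchor, had means of -0.12 ± 0.25 at 12 hrs, 0.19 ± 0.26 on the 7th day, with 3 of 4 arrays above 0, and -0.075 ± 0.22 after withdrawal.

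The iron-sulphur gene SdhB was tested on the 14th day only, with a mean of 0.075 ± 0.32 (n = 3). Its 2 values on the 7th day, from replicates 2 and 4, were -0.74 and -0.31. SdhAL, a copy of the flavoprotein gene, was tested on the 2nd day only, at -0.29, -0.27, -0.073 and 0.0055 (mean -0.16 ± 0.14, adjusted p = 1 by limma), with 3 of 4 arrays below 0 and the lowest values on the arrays with PTZ in Cy5. The complex II median rested on 1 to 4 genes: it was -0.15, -0.16, 0.060 and 0.062 over the 4 time points in order.

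Complex III was seen through Cyt-c1, the haem subunit that hands electrons to cytochrome c, and UQCR-6.4, a small subunit. Cyt-c1 averaged 0.14 ± 0.15 at 12 hrs (n = 3). On the 2nd day it measured 0.059, 0.42, -0.13 and -0.028, a mean of 0.079 ± 0.24 (adjusted p = 1 by limma), and without replicate 2 the mean was -0.033. After withdrawal it measured -0.20, 0.42, 0.010 and -0.14. UQCR-6.4 had means of -0.082 ± 0.22 at 12 hrs and -0.12 ± 0.21 after 2 days (n = 3 each). It measured 0.016, -0.36, 0.37 and -0.027 on the 7th day, on both sides of 0 (mean -0.00088 ± 0.30). With 1 or 2 genes a time point the complex III medians, from -0.020 to 0.028, say little about the complex.

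Complex IV was seen through COX4, COX7A and the like genes COX6AL, COX6CL and COX7AL, all for subunits outside the catalytic core, which is encoded in mitochondrial DNA. COX7A had the highest mean of any subunit gene on the 7th day, 0.24 ± 0.44 (adjusted p = 0.683 by limma). It measured 0.54 and 0.68 with PTZ in Cy5, and -0.18 and -0.096 with PTZ in Cy3, so the mean came from one dye orientation. At 12 hrs it measured -0.26, -0.11, 0.0083 and -0.15. COX6AL after withdrawal measured -0.43, -0.10 and -0.050, all 3 below 0, and on the 2nd day 0.10, 0.26, -0.052 and 0.037 (mean 0.087 ± 0.13, adjusted p = 1 by limma). COX4 averaged 0.025 ± 0.21 on the 2nd day and 0.14 ± 0.29 at 12 hrs (n = 3) and was not tested later. COX6CL, tested at 12 hrs only, measured 0.48, 0.11 and 0.17, the highest mean there (0.25 ± 0.20, n = 3). The complex IV median was 0.14 at 12 hrs (5 genes), 0.025 on the 2nd day (3 genes), 0.078 on the 7th day and -0.11 after withdrawal (2 genes each). The 12 hrs median was the mean of COX4, and it was 0.034 where all 4 values were required.

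Complex V held the genes with the lowest and the highest mean. The median of its genes was -0.033 at 12 hrs (8 genes), -0.018 on the 2nd day (7 genes), -0.060 on the 7th day (7 of 8 below 0) and 0.10 after withdrawal (4 of 8 above 0). On the 7th day 5 of 8 lay below 0 without replicate 2 and also without replicate 4, and after withdrawal the median was 0.025 without replicate 1. Its array medians on the 14th day were 0.29, 0.23, 0.053 and -0.39, the last being the lowest of the complexes on that array.

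ATPsynC encodes the subunit that forms the rotating ring in the membrane. At 12 hrs it averaged -0.035 ± 0.23, and it had no value on any array of the 2nd day. Its 7th day values were -0.22, -0.61, -0.13 and -0.63, below 0 on all 4 arrays and in both dye orientations. The mean was -0.40 ± 0.26, a PTZ level 0.759 times that of NF. By limma its unadjusted p was 0.0202 and its adjusted p was 0.589. Without replicate 2 its p was 0.0760, and without replicate 4 it was 0.0772. After withdrawal ATPsynC measured 0.26, 0.23, 0.56 and -0.17 (mean 0.22 ± 0.30), above 0 on all but replicate 4.

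ATPsynbeta encodes the catalytic subunit of the head of the enzyme. At 12 hrs and after 2 days its means were -0.031 ± 0.35 and -0.018 ± 0.30, and on both occasions the array of replicate 2 was highest (0.46 and 0.35). Its 7th day values were -0.22, -0.38, -0.074 and -0.41, again below 0 on every array (mean -0.27 ± 0.16, adjusted p = 0.589 by limma). Its 14th day values were 0.28, 0.59, 0.61 and -0.30, with replicate 4 alone below 0 (mean 0.30 ± 0.43, adjusted p = 1.00).

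ATPsynD encodes a subunit of the peripheral stalk, the part that holds the head still while the ring turns. At 12 hrs it measured 0.23, 0.33 and -0.21, with no value from replicate 4, and its sign followed the dye. It had no value on the 2nd day. After withdrawal it measured 0.34, 0.29 and 0.0025, all above 0, with no value from replicate 4 (mean 0.21 ± 0.18). Its 7th day values were -0.070, -0.39, -0.070 and -0.28, all below 0 (mean -0.20 ± 0.16, adjusted p = 0.643 by limma). ATPsynB, another part of the same stalk, averaged -0.0060 ± 0.33 on the 14th day and -0.029 ± 0.29 on the 7th day.

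The remaining ATP synthase genes were mixed. ATPsyngamma, the central shaft that turns with the ring, had the lowest mean of any subunit gene on the 14th day. It measured 0.076, -0.24 and -0.50 (mean -0.22 ± 0.29, adjusted p = 1.00 by limma), with no value from replicate 2. Replicate 1, its only array with PTZ in Cy5, was above 0 and the others below, so the sign followed the dye. With dye as a term in the fit its mean was -0.15, above that of COX6AL (-0.26). ATPsynG, a small membrane subunit, measured 0.30, 0.29, 0.39 and -0.12 on the 14th day (mean 0.22 ± 0.23), and ATPsynE, another, 0.34, 0.23, -0.26 and -0.52, where the sign followed the dye. ATPsynO, the subunit that joins stalk and head, averaged -0.033 ± 0.18 on the 2nd day and was below 0 on its 3 arrays at 12 hrs (-0.064, -0.13 and -0.16). On the 7th day 5 subunit genes in all lay below 0 on every array that measured them (ATPsynC, ATPsynbeta, ATPsynD, SdhD and ND-B8), which is 5 of 27, and 10.7% of all features did.

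**Figure D3:**
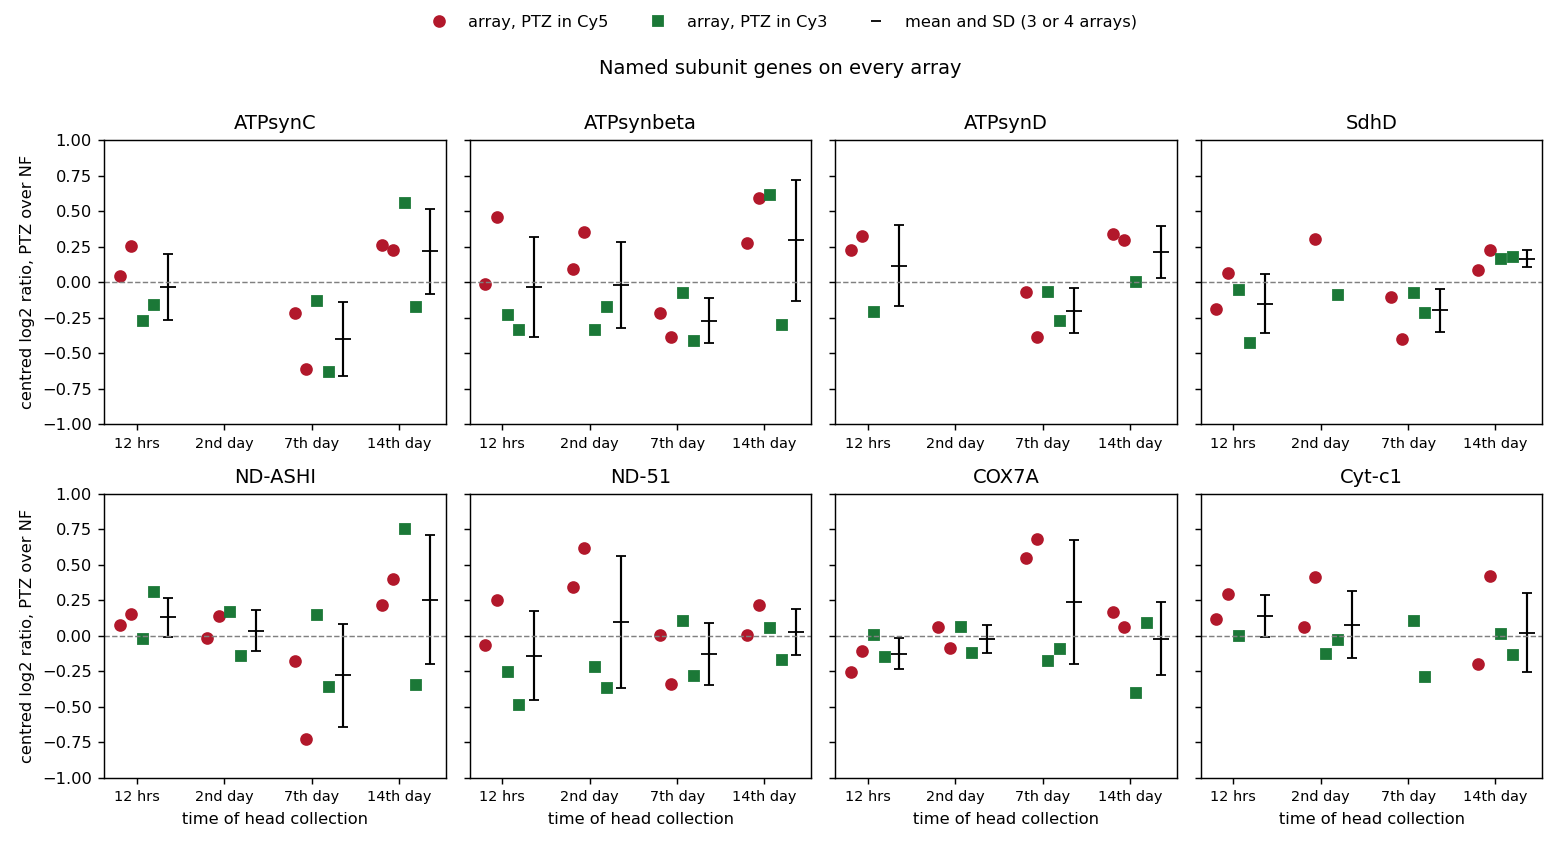
Centred log2 ratio of PTZ over NF on every array for 8 subunit genes, by time of head collection. Circles are arrays with PTZ in Cy5, squares arrays with PTZ in Cy3, and the bars give the mean and SD where 3 or 4 arrays had a value. ATPsynC, ATPsynbeta, ATPsynD and SdhD lie mostly above 0 on the 14th day and wholly below it on the 7th day, while the circles and squares of ND-51 separate on the 2nd day and those of COX7A on the 7th day.

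Since the genes measured changed with time, the medians were also taken over the 15 genes tested at every time point. Their median was 0.034 at 12 hrs (8 of 15 above 0), 0.0076 on the 2nd day (9 of 15 above 0), -0.082 on the 7th day (13 of 15 below 0) and 0.043 after withdrawal (9 of 15 above 0). Without replicate 2 of the 7th day 8 of the 15 lay below 0 there (median -0.011), and without replicate 4 it was 10 (median -0.050). The 9 complex I genes among them had medians of 0.075, 0.037, -0.10 and 0.060 over the 4 time points in order of time. The 4 complex V genes had medians of -0.059, -0.012, -0.026 and 0.10. The array medians of the 15 genes on the 7th day were 0.0025, -0.34, 0.11 and -0.13, which spread more widely than the medians of the 4 time points do.

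Withdrawal was compared with treatment by the difference between the 14th day and the 7th day. No subunit gene differed by limma (0 of 24, adjusted p under 0.19, with 0% of 5881 features called), and 3 had an unadjusted p under 0.05, where 7.65% of features did. ATPsynC had a mean of 0.22 on the 14th day and -0.40 on the 7th day, a difference of 0.62 (95% interval 0.16 to 1.08). ATPsynbeta had means of 0.30 and -0.27, a difference of 0.57 (interval 0.072 to 1.06), and SdhD of 0.17 and -0.20, a difference of 0.37 (interval 0.021 to 0.71). The adjusted p by limma was 0.648 for each of these genes. For SdhD and for ATPsynD (difference 0.41, adjusted p = 0.648) every 14th day value stood above every 7th day value, which held for 2.84% of features.

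Of the 24 genes 18 lay higher on the 14th day than on the 7th, with a median difference of 0.079, against 49.9% of features and a median of -0.0013. By complex, 11 of 12 genes of complex I and 6 of 7 of complex V lay higher, against 1 of 3 of complex II and 0 of 2 of complex IV. The count leaned on 1 array: without replicate 4 of the 7th day, 13 of 24 genes lay higher (7 of 12 of complex I and 5 of 7 of complex V), with 51.2% of features, while leaving out any other array gave 15 to 19. The 14th day and 7th day arrays each had the NF control of their own time point. Their titles give the day, sex and replicate number, and do not say how the sets of flies were related.

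**Figure D4:**
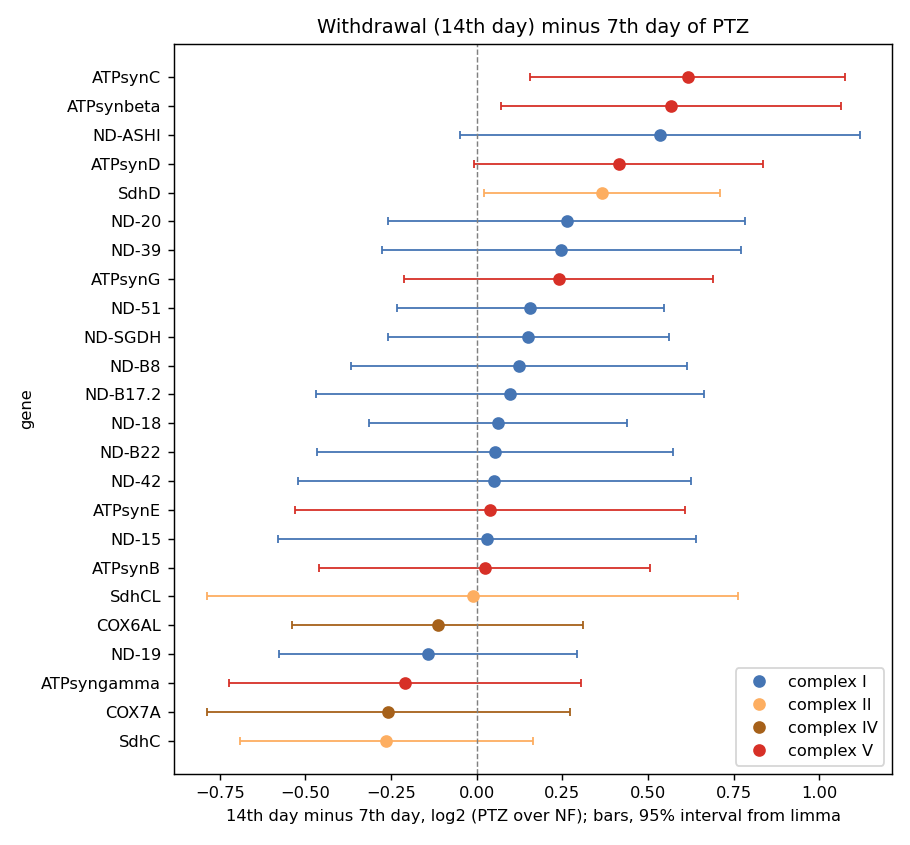
Difference of the mean log2 ratio of PTZ over NF, 14th day (withdrawal) minus 7th day (PTZ), for the 24 subunit genes tested at both times, coloured by complex, with 95% intervals from limma. ATPsynC (0.62) and ATPsynbeta (0.57) are at the top and SdhC (-0.26) at the bottom, and the intervals of ATPsynC, ATPsynbeta and SdhD lie wholly above 0 before adjustment.

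During treatment the genes lay lower on the 7th day than earlier, and so did most features. No subunit gene differed by limma in the 7th day against 12 hrs (0 of 23, with 0.135% of features called), the 7th day against the 2nd day (0 of 20, with 0.0238%) or the 2nd day against 12 hrs (0 of 23, with 0.0225%), and none had an unadjusted p under 0.05, where 6.14%, 6.29% and 2.32% of features did. Against 12 hrs, 16 of 23 genes lay lower on the 7th day (median difference -0.12), with 41.7% of features higher and a feature median of -0.053, and without replicate 4 of the 7th day the count was 14 of 23. Against the 2nd day, 14 of 20 lay lower on the 7th day (median -0.13), with 42% of features higher and a feature median of -0.042, and without replicate 2 of the 7th day the count was 10 of 20. In both comparisons 9 of 11 genes of complex I lay lower on the 7th day, but 7 of 11 against 12 hrs without replicate 4 of the 7th day and 7 of 11 against the 2nd day without its replicate 2. The lowest difference was that of ND-ASHI each time, -0.41 against 12 hrs and -0.32 against the 2nd day. In the 2nd day against 12 hrs 11 of 23 lay higher, with 51.1% of features higher, and the median difference was -0.0012.

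The dye of the PTZ sample moved with many of the values. At 12 hrs, 19 of 32 subunit genes (59.4%) had a mean above 0 on the arrays with PTZ in Cy5 and below 0 on those with PTZ in Cy3, and 35.6% of all features had. On the 2nd day it was 15 of 26 (57.7%) and 31.9% of features, on the 7th day 5 of 27 (18.5%) and 21.6%, and on the 14th day 16 of 28 (57.1%) and 25.8%. The reverse arrangement was seen for 2, 6, 6 and 0 subunit genes in order of time. The dye effect was taken as the coefficient of dye orientation in the fit, which is the gap between the means of the 2 orientations divided by 2. For a gene with all 4 values it is also the mean of the ratios with the swapped arrays left unturned. Its median over the subunit genes was 0.10, 0.077, -0.028 and 0.11 at the 4 times, against 0.0049, 0.0005, -0.029 and -0.0095 over all features.

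The dye effect passed the limma test (adjusted p under 0.19, a test added after the values had been seen) for 7 of 32 subunit genes at 12 hrs, with 27.8% of all features, and for 2 of 26 on the 2nd day, with 3.29% of features. On the 7th and 14th day it passed for 0 of 27 and 0 of 28, with 0.233% and 0.0619% of features, and its unadjusted p was under 0.05 for COX7A (0.0115) and SdhCL (0.0256) on the 7th day and for SdhCL (0.0150) on the 14th day. At 12 hrs the 7 were ND-75 (dye effect 0.40, adjusted p = 0.104), ATPsyngamma (0.32), COX4 (0.25), ATPsynbeta (0.25), ND-51 (0.23), ND-42 (0.19) and, in the other direction, ND-B22 (-0.30). On the 2nd day they were ND-51 (0.39) and ATPsynGL (-0.84). ATPsynGL had 1 array with PTZ in Cy5 on the 2nd day, the one at -1.49, and COX4 had 1 array with PTZ in Cy3 at 12 hrs, so each of these effects rested on a single array for 1 orientation. The share at 12 hrs, 7 of 32, was below that of all features. With dye as a term in the fit, 0 subunit genes were called at any time point, the mean of a gene with all 4 values being the same in both fits.

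**Figure D5:**
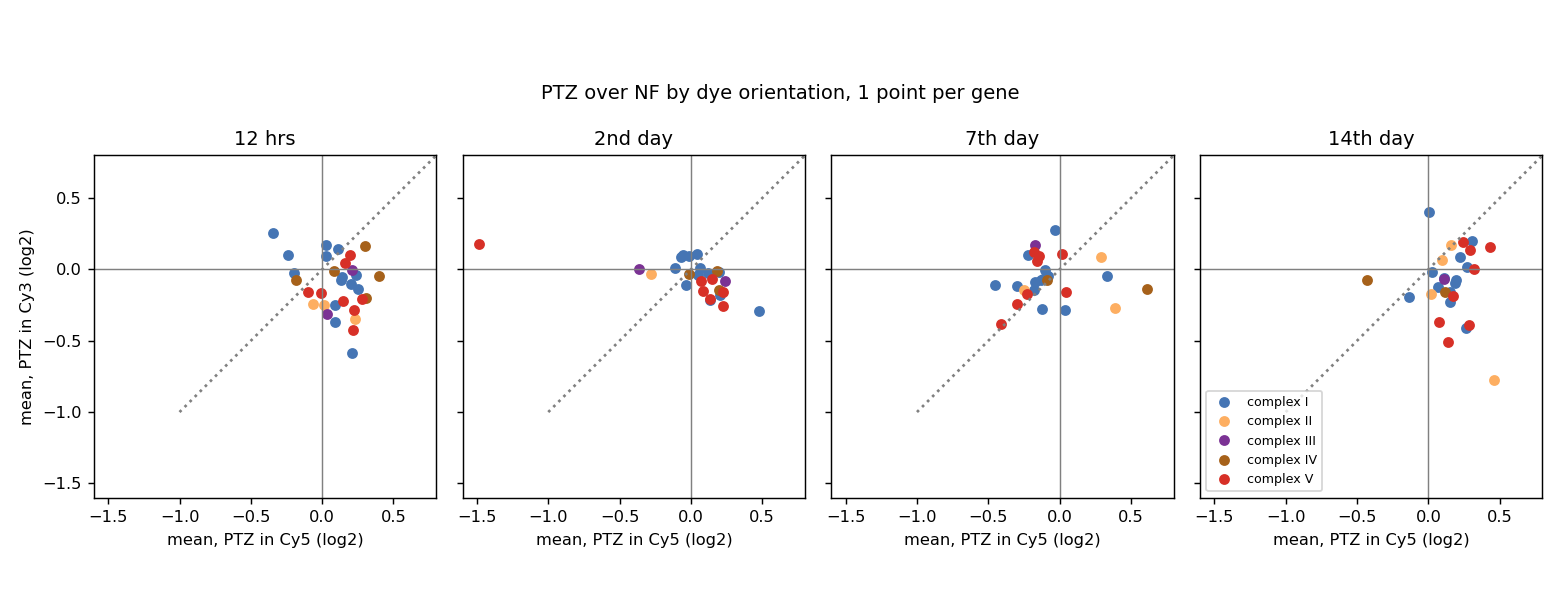
Mean log2 ratio of PTZ over NF on the arrays with PTZ in Cy3 (vertical) against that on the arrays with PTZ in Cy5 (horizontal), 1 point for each subunit gene tested, in 1 panel per time point and coloured by complex. On the dotted line both orientations give the same ratio. The lower right quadrant holds 19 of 32 points at 12 hrs, 15 of 26 after 2 days, 5 of 27 after 7 days and 16 of 28 after withdrawal.

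Where both a subunit gene and its like copy were on the array, few pairs could be set side by side. Like genes of the respiratory chain in flies are often expressed mainly in testis. SdhC and SdhCL measured 0.070, 0.52, 0.26 and -0.092, and 0.34, 0.44, -0.42 and -0.12, on the 7th day. Both were highest on replicate 2, but SdhCL changed sign with the dye. ATPsynG and ATPsynGL both had a mean near 0 on the 7th day (-0.023 ± 0.31, n = 4, and 0.077 ± 0.084, n = 3), and on the 2nd day ATPsynGL measured -1.49, 0.36 and 0.0040, against 0.27, 0.035, -0.052 and -0.078 for ATPsynG. The value of -1.49 stood far from the rest and came from an array that ATPsynG measured at 0.035. COX7A and COX7AL at 12 hrs averaged -0.13 ± 0.11 and 0.18 ± 0.40 (n = 4 each). ATPsynbeta and ATPsynbetaL on the 14th day averaged 0.30 ± 0.43 (n = 4) and -0.076 ± 0.54 (n = 3). SdhB and SdhBL, Cyt-c1 and Cyt-c1L, and ND-51 and ND-51L2 were never both tested at a time point. Binding of RNA from 1 copy to the spot of the other was not tested.

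Other genes of the same pathways were read from lists. Of the subunits without these prefixes only levy, a complex IV subunit, was among the named genes. Its means were -0.14, 0.098 and -0.16 at the 3 time points of treatment in order. Counts of list genes on the array, here and for the markers below, cover named spots only, and spots without a name could hold others. None of the genes for assembly factors (9 on the array), the TCA cycle (7), mitochondrial carriers (17), regulators of mitochondrial biogenesis (8), the vacuolar proton pump V-ATPase (6) or oxidant defence (6) passed the limma test at any time point, and an unadjusted p under 0.05 was found for 0 of 30 tested at 12 hrs, 3 of 32 on the 2nd day, 2 of 39 on the 7th day and 1 of 37 after withdrawal, beside 2.34%, 4.82%, 8.4% and 2.18% of features. By the 7th day the V-ATPase, a relative of ATP synthase that spends ATP to pump protons, had 5 of 6 genes below 0 with a median of -0.24. The oxidant defence genes had 4 of 4 below 0 with a median of -0.16, where 49.3% of all features lay below 0. Array medians were -0.14, -0.37, -0.073 and -0.39 for the V-ATPase. For oxidant defence they were -0.31, -0.33, 0.0125 and -0.049. Below 0 on every array that measured them were 3 of the 6 and 0 of the 4 genes, beside 10.7% of all features. Assembly factors (3 of 8 above 0, median -0.041), carriers (4 of 11, median -0.072), the TCA cycle (2 of 3, median 0.055) and biogenesis regulators (5 of 7, median 0.094) lay closer to 0 or above it. Vha26, a stalk subunit of the V-ATPase, measured -0.46, -0.37, -0.010 and -0.69 on the 7th day (mean -0.38 ± 0.28, adjusted p = 0.589 by limma). Opa1, which fuses inner mitochondrial membranes, measured 0.44, 0.66 and 0.74 (mean 0.61 ± 0.16, adjusted p = 0.589 by limma).

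Muscle is rich in mitochondria and heads hold some, so muscle markers were read beside the subunit genes. Of 22 markers, 10 were on the array. Their median was 0.065 at 12 hrs (7 of 7 above 0), 0.088 on the 2nd day (7 of 8), 0.067 on the 7th day (5 of 9) and 0.020 after withdrawal (4 of 8). On the 7th day the array medians of these markers were -0.033, -0.092, -0.014 and 0.059, 3 of 4 below 0. Act88F, a flight muscle actin, measured -0.47, -0.42, -0.38 and -0.29 there, and the muscle actins Act87E (mean -0.18 ± 0.089, 4 of 4 below 0) and Act79B (mean -0.21 ± 0.24, 3 of 4 below 0) were also low, while Mlc1, a myosin light chain, was above 0 on all 4 arrays (mean 0.18 ± 0.16). Photoreceptor markers (11 of 24 on the array) had medians of 0.014, 0.075, -0.018 and 0.19 over the 4 time points in order. The genes tested numbered 7, 8, 8 and 9. Fat body markers (12 of 17) had medians of -0.21, -0.27, -0.085 and 0.043, from 5, 8, 6 and 7 genes. On the 2nd day 2 of 8 were lower by limma, where 0.222% of all features were called in either direction. These were fit (mean -1.25) and AkhR (-0.54). Of the 8, 4 lay above 0 that day and 4 below. Above it was bmm on all 4 arrays (mean 0.60 ± 0.23, adjusted p = 0.373 by limma). Medians of neuron markers (5 of 17) were 0.096, 0.010, 0.041 and 0.11, from 3, 2, 4 and 4 genes tested. Those of glia markers (8 of 11) were -0.15, -0.22, -0.021 and -0.074, from 4, 3, 4 and 4 genes. Those of ovary and germline markers (9 of 17) were -0.055, -0.065, -0.059 and -0.15, from 3, 5, 4 and 4 genes. Ratios carry no level, so the tissue itself could not be checked against these markers. Photoreceptor and fat body medians were, like that of the subunit genes, above 0 on the 14th day and below it on the 7th day. Both rested on mixed values. On the 7th day 4 of 8 photoreceptor markers lay above 0, with array medians of -0.042, -0.13, 0.097 and -0.18. On the 14th day 4 of 7 fat body markers lay above 0 (SD of the array medians 0.25). Muscle and neuron medians were above 0 on both days, and glia and germline medians below. The part of cell composition in the ratios was not tested.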

How the data were processed

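Heads of virgin females on PTZ and on NF were compared on 16 arrays. The authors deposited 1 table of log2 ratios of Cy5 over Cy3, read with GenePix Pro 6.0 and normalized on ratios with Acuity 4.0, after they removed spots that were uneven, flagged, saturated or weak. The centring of those values is not stated in any source used here, and no spot intensities were used, so signal over background is unknown. Values at the table's ceiling (53) were set missing. Dye Swap arrays were multiplied by -1, and every array was centred on its median. Gene names came from the platform annotation (symbols updated through gene IDs), and rows of 1 gene were averaged (most genes have 2 neighbouring spots). Spots without a name were averaged in neighbouring pairs, for 13059 features in all.

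Each time point (4 arrays, at least 3 values) was tested against 0, and pairs of time points (8 arrays) against each other, with limma 3.58.1 (lmFit, eBayes) in R 4.3.3, two-sided, with Benjamini-Hochberg adjustment over all features and a threshold of 0.19, the highest false discovery rate used in the study. The fits were also run on simulated ratios with independent noise on each array and no dye effect. That run therefore cannot show how the fits behave where arrays differ by dye. Array order in the text is replicate 1 to 4. Same-numbered arrays of different time points did not deviate together (6 of 24 pairs of arrays correlated above 0.1), so the numbers were not taken as pairs. Alternatives were the deposited centring, centring on the mean ratio, a dye term, a replicate block, 16 arrays in one fit, all 4 values required, the ceiling kept, 1 row a gene, eBayes with trend and robust, a threshold of 0.05, and each array left out. The threshold of 0.05 could not raise a count that was 0 at 0.19.

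The subunit genes and lists were chosen with earlier results of these data known. Some genes were chosen by rule and given array by array for 1 or more time points. In each complex they were the 2 with the smallest p at any time point among those with 4 values. The rule also took the lowest and the highest mean on the 7th and the 14th day, and genes of 1 sign with an unadjusted p under 0.05. ATPsynbeta, ATPsynD and ND-42 were added because the study's supplementary table of up- and down-regulated genes lists them. Pairs of like genes were also given, some by their means only. ND-75, ND-B8, SdhC, ATPsynG and other genes described beyond this were chosen after their values were seen. No sequences are shown, as none were at hand.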

Additional observations from a re-analysis of the deposited data

Results flagged for a closer look

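In 3 of the 99 groups of 4 arrays checked, 1 array stood far from the other 3 by Dixon's test, which flags about 1 in 20 groups by chance. COX7AL at 12 hrs measured -0.42 on replicate 3, against 0.34 to 0.44 on the others. ND-B17.2 at 12 hrs measured -0.036 on replicate 1, against 0.087 to 0.11, a gap that is small beside the spread of other genes. ND-B8 on the 2nd day measured -0.24 on replicate 2, against 0.0035 to 0.023.

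ATPsynD and SdhD had opposite signs at 2 time points on every array that measured them, above 0 on the 14th day and below 0 on the 7th day. The difference was 0.41 for ATPsynD and 0.37 for SdhD, and neither passed the limma test of the difference (adjusted p = 0.648 for both). ATPsynD had no value on replicate 4 of the 14th day, the array on which 20 of the 24 subunit genes measured lay below 0.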

How the results depend on the processing

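The count of subunit genes called stayed at 0 at each time point and in each difference under every alternative run, the smallest adjusted p of any subunit gene being 0.665, 0.374, 0.369 and 0.833 at the 4 times in order and 0.339 in the 14th day against the 7th day. With the replicate number as a block the count was also 0 in all 8 comparisons (smallest adjusted p = 0.526), and in 6 of 24 comparisons of an array with the 4 arrays of another time point the highest correlation was with the same number. Of the alternative values for counts and medians, 353 stayed within the spread between arrays or kept their count, and 6 did not. A value within that spread can still cross 0: of 239 alternative medians 36 had the other sign, 22 of them with an array left out, and they touched 17 of the 24 medians. Among them on the 7th day were complex II (-0.031 and -0.068 without replicate 1 or 2), complex III (0.13 as deposited, 0.12 without replicate 2) and complex IV (-0.10 with 1 row a gene), and at 12 hrs complex V (0.040 and 0.059 without replicate 3 or 4). The medians of all subunit genes, of complex I and of complex V stayed below 0 on the 7th day under every alternative run, although that of all genes was -0.0039 as deposited. With the values as deposited, the 14th day medians were 0.28 for all subunit genes, 0.29 for complex I, 0.29 for complex II and 0.46 for complex V, with all features at 0.25. Requiring all 4 arrays gave -0.042 for complex I at 12 hrs and 0.079 for complex III on the 2nd day, where fewer genes were left. Of the genes named, UQCR-6.4 on the 7th day was 0.13 as deposited and -0.12 to 0.12 with an array left out (0.0078 without replicate 4), and Cyt-c1 on the 2nd day -0.033 to 0.15. The cause was not tested. With an array left out, the median of the subunit genes lay between -0.015 and 0.073 (12 hrs), -0.020 and 0.055 (2nd day), -0.14 and -0.050 (7th day), and -0.024 and 0.091 (withdrawal). Duplicate spots of subunit genes differed by a median of 0.11 (509 pairs), against 0.15 over all spot pairs.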
